A study of Mus musculus with 16 samples.

Results

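Kat7 and the subunits of the acetyltransferase complexes that it forms were followed through RNA sequencing of mouse neural stem and progenitor cells. The 10 genes were chosen by name, as the catalytic subunit Kat7, the BRPF scaffolds Brpf1, Brd1 and Brpf3, the JADE scaffolds Jade1, Jade2 and Jade3, the ING readers Ing4 and Ing5, and Meaf6. They are 10 of 27179 genes in the count files, and all 10 were among the 15177 genes that passed a filter on low counts. The 4 groups of 4 libraries were null differentiating, intact differentiating, null proliferating and intact proliferating cells. Null cells carried the germline genotype Kat7lox/loxNesCreT/+ and intact cells Kat7+/+NesCreT/+, so a Cre transgene named for Nestin, a gene of neural progenitors, was present in every group. Cortex and ganglionic eminence tissue of foetuses at stage E14.5 gave the cells, 4 foetuses per genotype. Proliferating cells had been kept as neurospheres for 3 passages and 3 days, and differentiating cells had spent 3 days on laminin in a neuron medium after passage 3. With 4 foetuses per genotype and 4 libraries per group, the conditions would share foetuses, but the labels do not say which libraries match. Except where a block on the replicate number is given, the fits treat the libraries as independent. Replicates are separate isolates by the design, and floxed cells lose Kat7 only where Cre has acted.

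KAT7, also called HBO1, is a histone acetyltransferase of the MYST family and works as the catalytic subunit of small complexes. A scaffold protein of the BRPF or the JADE family holds the enzyme together with an ING protein, whose PHD finger binds methylated histone H3, and with the small subunit MEAF6. In human cells the scaffold decides the substrate, since BRPF proteins direct the enzyme to histone H3 and JADE proteins to histone H4. BRPF scaffolds, ING5 and MEAF6 also serve the related enzymes KAT6A and KAT6B, so their mRNAs are not those of KAT7 complexes alone. KAT7 complexes are known for acetylation of histone H3 in developing tissue and for binding proteins of replication origins.

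The libraries held 16.8 to 47.9 M counts, and every subunit other than Kat7 in null cells rested on at least 238 counts over the 4 libraries of a group. Levels are given as CPM, counts per M counts of a library after scaling by trimmed mean of M values (TMM), and as RPKM, which is CPM per kilobase of the deposited gene length, where genes are set side by side. All 6 neural stem cell markers were detected in every group, with summed levels of 3758 to 4840 CPM in null differentiating, 2503 to 3348 CPM in intact differentiating, 6394 to 6825 CPM in null proliferating and 6281 to 6946 CPM in intact proliferating libraries. The 6 markers of cycling cells summed to 344 to 399.8 CPM, 160.2 to 251 CPM, 1670 to 1971 CPM and 2095 to 2437 CPM in the same order, and 7 astrocyte markers to 5529 to 8795 CPM, 1825 to 2884 CPM, 2462 to 3701 CPM and 1256 to 1849.7 CPM. The 7 neuron markers summed to 2089 to 2484 CPM in null differentiating, 1893 to 5294 CPM in intact differentiating, 1006 to 1214 CPM in null proliferating and 942 to 1077 CPM in intact proliferating libraries, the 5294 CPM being in intact differentiating replicate 1. Of the 7, edgeR put 1 higher and 3 lower in null differentiating cells at an adjusted p under 0.05. In null proliferating cells 0 were higher and 3 lower. Of all tested genes, 46.4% and 38.6% passed that threshold. The median log2 fold changes, null over intact, were -1.31 and -0.90. Map2 alone averaged 1603 CPM in null differentiating, 1272 CPM in intact differentiating, 1077 CPM in null proliferating and 974 CPM in intact proliferating cells. The 7 oligodendrocyte lineage markers summed to 1896 to 2360.4 CPM, 3414 to 6605 CPM, 1768 to 2257 CPM and 2967 to 3143 CPM in that order. The 5 microglia markers summed to at most 0.244 CPM in any library, with Aif1 at 0 counts in null differentiating and in both proliferating groups. The 6 endothelial and mural markers reached a sum of 124.0 CPM in null proliferating replicate 4, of which Acta2, a smooth muscle actin gene, made up 122 CPM, and at most 37.0 CPM in any library of the other groups. Pecam1, Cldn5 and Cdh5, the endothelial ones, were under 1 CPM in every library. These mixtures moved with genotype and condition, and their part in the subunit levels was not tested. In bulk RNA, fewer cells of a type and less RNA per cell cannot be told apart.

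**Figure D1:**
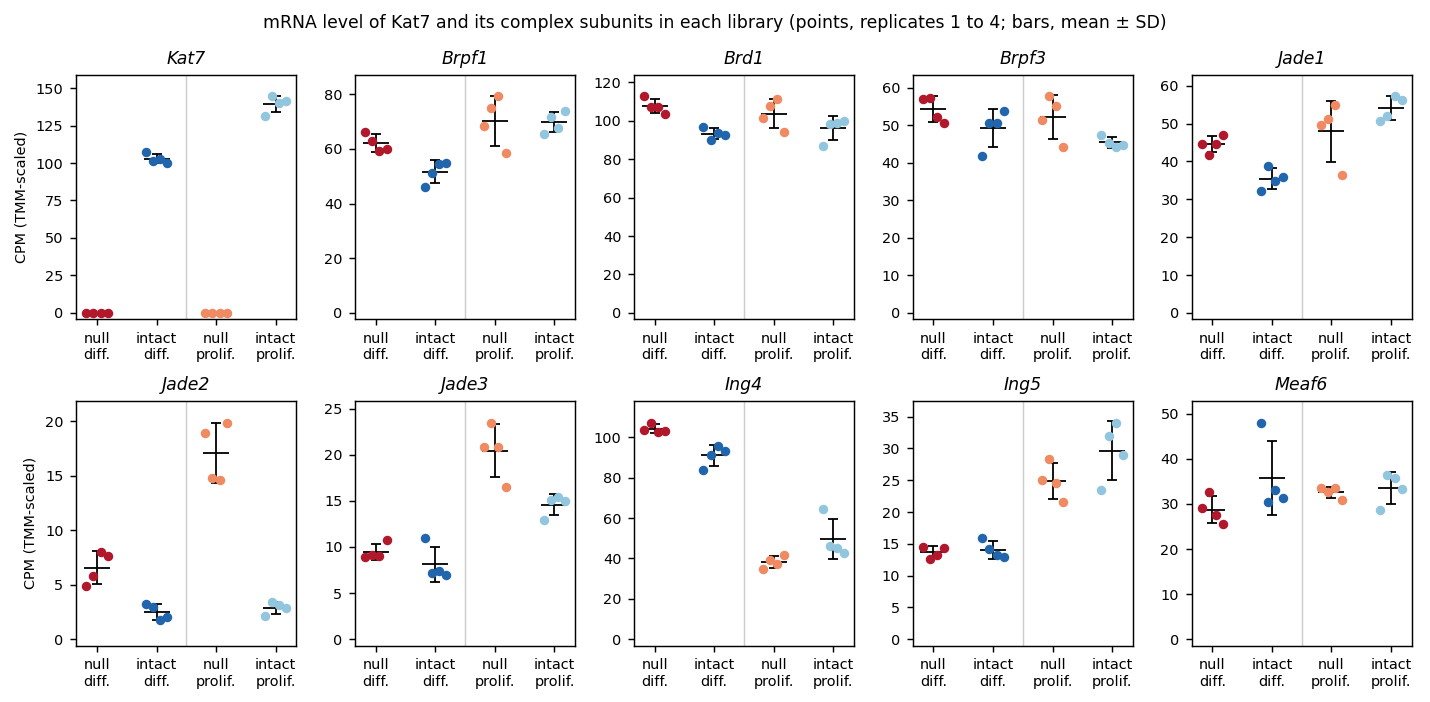
CPM (counts per M counts, TMM-scaled) of each of the 10 genes in each library, with null differentiating, intact differentiating, null proliferating and intact proliferating groups from left to right; points are replicates 1 to 4 and bars the mean ± SD (n = 4). Kat7 is near 0 in null cells, Jade2 is highest in null proliferating libraries, and Ing4 and Ing5 differ in opposite directions between the conditions.

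The genes of the complexes had very unequal mRNA levels per length. In intact proliferating cells the order ran from Meaf6 at 38.3 ± 4.002 RPKM (SD, n = 4) and Ing4 at 30.7 ± 6.16 RPKM, whose libraries overlapped, through Kat7 at 23.4 ± 0.936 RPKM, Brd1 at 18.7 ± 1.22 RPKM and Brpf1 at 15.7 ± 0.851 RPKM. Jade1 at 9.08 ± 0.5300 RPKM, Brpf3 at 7.61 ± 0.245 RPKM, Ing5 at 6.53 ± 1.02 RPKM and Jade3 at 5.897 ± 0.4604 RPKM followed. Brpf3 overlapped Ing5, and Ing5 overlapped Jade3. Jade2 was last by a wide margin at 0.472 ± 0.0936 RPKM, above 14.4% of all tested genes, whereas Kat7 was above 74.1% and the median tested gene lay at 8.60 RPKM. In intact differentiating cells Ing4 at 56.3 ± 3.201 RPKM and Meaf6 at 40.9 ± 9.44 RPKM led with overlapping libraries, Kat7 at 17.2 ± 0.517 RPKM overlapped Brd1 at 18.2 ± 0.543 RPKM, and Jade2 was again last at 0.409 ± 0.115 RPKM. In null proliferating cells Jade3 at 8.26 ± 1.17 RPKM overlapped Jade1 at 8.06 ± 1.36 RPKM, and Jade2 reached 2.79 ± 0.4495 RPKM, above 31.3% of tested genes. Levels per length depend on the deposited gene lengths, which run from 876 bases for Meaf6 to 6100 bases for Jade2.

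Between genotypes, 8 of the 9 subunit mRNAs other than Kat7 lay within 1.5-fold in both conditions, and Jade2 did not. Each comparison was tested with edgeR's quasi-likelihood test over all genes, and an adjusted p under 0.05 is called. Log2 fold changes are given ± SE and levels ± SD over 4 libraries. Ranges of adjusted p over alternatives, which are listed with the processing, include a test against a minimum of 1.5-fold. That test asks a stricter question than the others and sets the upper end of the range for small changes. In differentiating cells, Brpf1, Brd1, Jade1 and Jade2 rose and Kat7 fell, which is 5 of 10 genes where 46.4% of all tested genes were called, 24.3% higher and 22.0% lower. Libraries of null and intact cells did not overlap for 6 of the 10 there, beside 45.3% of all tested genes. In proliferating cells, Jade2 and Jade3 rose and Kat7 and Ing4 fell, which is 4 of 10 where 38.6% of all tested genes were called, 19.0% higher and 19.7% lower. The same 4 did not overlap, beside 39.0% of all tested genes. Without Kat7, the median log2 fold change of the other 9 genes was 0.21 in differentiating and 0.01 in proliferating cells, beside 0.04 and -0.01 over all tested genes. The Kat7 call follows from the genotype. Of the other 9 genes, 4 were called higher and 0 lower in differentiating cells, and 2 higher and 1 lower in proliferating cells. The number of genes called was thus near the share of all genes, and what stands out is the size of the Jade2 difference. With library size scaling in place of TMM, only Jade2 rose and Kat7 and Meaf6 fell in differentiating cells. That scaling raises the lower share of all called genes to 60.6% from 47.5% in differentiating cells and to 63.3% from 50.9% in proliferating cells.

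Kat7 (Entrez 217127; chromosome 11, 95271853 to 95310246 in GRCm38, minus strand) encodes the catalytic subunit, and its mRNA was almost absent from null cells. It had 0, 1, 0 and 0 counts in the null differentiating libraries, against 3748, 2726, 2643 and 3343 counts in the intact differentiating libraries. In the null proliferating libraries it had 2, 2, 4 and 0 counts, against 2714, 2671, 3036 and 3144 counts in the intact proliferating libraries. No null library overlapped an intact library. Over all exons together, null cells kept 0.00680% of the intact level in differentiating cells (95% counting interval 0.000172 to 0.0379%) and 0.0551% in proliferating cells (0.0238 to 0.109%). For a library with 0 counts, 3 counts set the upper limit, which is 0.0610% of the intact mean in null proliferating replicate 4 and 0.0621 to 0.102% in the 3 null differentiating libraries with 0 counts. Both limits cover counting error only. The edgeR log2 fold changes were -13.13 (edgeR adjusted p = 3.3e-13) and -10.73 (edgeR adjusted p = 4.7e-13), and they rest on 1 and 8 counts in null cells. Without single libraries they ran over -14.49 to -12.74 and -11.32 to -10.17. No SE is given for them, since an SE from the F statistic is too narrow at so few counts.

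In intact cells Kat7 itself differed between the conditions. It had 107, 101, 103 and 100.2 CPM in the differentiating libraries and 132, 145, 139.8 and 142 CPM in the proliferating libraries, without overlap, and fell by 0.44 on the log2 scale (SE 0.13, edgeR adjusted p = 0.00647). The fall is smaller than 1.5-fold and did not pass a test against that minimum. Among null cells, the 1 count in differentiating against 8 in proliferating libraries gives a ratio of 9.12% (95% counting interval 0.206 to 68.0%). edgeR called this difference lower (edgeR adjusted p = 0.00875), but not without null proliferating replicate 3, which holds 4 of the 8 counts (edgeR adjusted p = 0.0655; adjusted p 9.7e-04 to 0.0655 over 24 alternatives).

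The 3 nearest tested genes on each side of Kat7 were still detected in null cells, though 5 of these 6 were called in differentiating cells. On the higher coordinate side, Slc35b1, a nucleotide sugar transporter gene, averaged 68.04 ± 2.95 CPM in null against 70.8 ± 6.31 CPM in intact cells that were differentiating, and 78.7 ± 1.74 CPM in null against 58.1 ± 4.65 CPM in intact cells that were proliferating. Its log2 fold change of 0.44 ± 0.07 passed the test in proliferating cells (edgeR adjusted p = 2.0e-04). Fam117a, the nearest tested gene, 26771 bases away, was at 3.16 ± 0.624 CPM in null against 9.42 ± 2.59 CPM in intact differentiating cells (log2 -1.57 ± 0.24, edgeR adjusted p = 9.1e-05), and Spop, a ubiquitin ligase adaptor gene, fell slightly (-0.31 ± 0.05, edgeR adjusted p = 2.1e-04). In proliferating cells the values were -0.60 ± 0.25 for Fam117a (edgeR adjusted p = 0.0647) and 0.06 ± 0.05 for Spop (edgeR adjusted p = 0.4297). On the lower coordinate side Itga3, Pdk2 and Samd14 lie 195008 bases or more away. Itga3 (log2 fold change -1.74 ± 0.50) and Samd14 (-0.50 ± 0.17) fell and Pdk2 (0.74 ± 0.26) rose in differentiating cells, with edgeR adjusted p between 0.0103 and 0.0282. Samd14 also fell in proliferating cells (-0.84 ± 0.18, edgeR adjusted p = 0.00163), while Itga3 (-0.09 ± 0.61) and Pdk2 (0.56 ± 0.27) were not called there. Of the 6 neighbours, 5 were thus called in differentiating cells, beside 46.4% of all tested genes, and 2 in proliferating cells, beside 38.6%. The genes most like Kat7 in log2 CPM over the 16 libraries were Tmem50a (Pearson r = 0.992), Itm2a (0.988) and Sntb1 (0.983), a description over libraries that share genotype and condition. Tmem50a averaged 12.7 ± 1.42 CPM in null against 69.2 ± 4.46 CPM in intact cells that were differentiating, and 16.6 ± 1.58 CPM in null against 62.7 ± 2.82 CPM in intact cells that were proliferating.

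The BRPF scaffold mRNAs lay within 1.5-fold of their intact levels in both conditions. Brpf1 (Entrez 78783; chromosome 6, 113306863 to 113324862), a scaffold with paired PHD fingers, a bromodomain and a PWWP domain, had 66.2, 62.96, 59.1 and 59.9 CPM in null against 45.9, 51.00, 54.6 and 54.96 CPM in intact differentiating libraries. In proliferating cells it had 68.2, 74.8, 79.3 and 58.3 CPM in null against 65.6, 71.8, 67.8 and 73.95 CPM in intact libraries. The null differentiating libraries all lay above the intact ones, while the proliferating groups overlapped. Brpf1 rose by a log2 fold change of 0.27 ± 0.09 in differentiating cells (edgeR adjusted p = 0.0219), a call that was lost with library size scaling (0.18, adjusted p = 0.143), DESeq2 size factors, DESeq2's Wald test and without null or intact differentiating replicate 1 (adjusted p 0.00609 to 1.0 over 25 alternatives). In proliferating cells the estimate was 0.01 ± 0.09 (edgeR adjusted p = 0.962, 95% interval -0.18 to 0.19). Upon differentiation Brpf1 fell in intact cells (-0.44 ± 0.09, edgeR adjusted p = 4.2e-04), while the value in null cells was -0.18 ± 0.09 (edgeR adjusted p = 0.0856). The difference of the responses did not pass (0.26 ± 0.12, edgeR adjusted p = 0.148).

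Brd1 (Entrez 223770; chromosome 15, 88687034 to 88734228), also known as BRPF2, was the most abundant scaffold mRNA per length in every group. It had 113, 107, 107 and 104 CPM in null against 96.9, 90.2, 93.7 and 92.4 CPM in intact differentiating libraries, and 102, 108, 111 and 94.3 CPM in null against 86.8, 98.5, 99.1 and 100.2 CPM in intact proliferating libraries. The null differentiating libraries were all higher than the intact ones and the log2 fold change was 0.21 ± 0.06 (edgeR adjusted p = 0.0126), which did not pass with library size scaling (0.12, adjusted p = 0.1104) or DESeq2 size factors (adjusted p 0.00425 to 1.0 over 25 alternatives). The proliferating groups overlapped (0.11 ± 0.06, edgeR adjusted p = 0.174). Differentiation left Brd1 within a 95% interval of -0.08 to 0.18 in null and -0.17 to 0.09 in intact cells on the log2 scale.

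Brpf3 (Entrez 268936; chromosome 17, 28801126 to 28838789), the scaffold linked in human cells to KAT7 at replication origins, was not called in any comparison. Its mean was 54.3 ± 3.41 CPM in null against 49.2 ± 5.11 CPM in intact differentiating cells, and 52.1 ± 5.89 CPM in null against 45.4 ± 1.46 CPM in intact proliferating cells. The log2 fold changes were 0.14 ± 0.09 (edgeR adjusted p = 0.2003) and 0.20 ± 0.09 (edgeR adjusted p = 0.09104). The second passed without null proliferating replicate 4 (0.27, adjusted p = 0.0184), which had the lowest value of its group, and without intact differentiating replicate 1, which enters only through the shared spread (adjusted p 0.0184 to 1.0 over 25 alternatives). Within the BRPF family, Brd1 supplied 47.6 ± 0.7796%, 47.8 ± 2.88%, 45.2 ± 1.36% and 44.5 ± 1.38% of the summed BRPF RPKM in null differentiating, intact differentiating, null proliferating and intact proliferating cells.

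Among the JADE scaffolds, Jade2 was several-fold higher in null cells. Jade2 (Entrez 76901; chromosome 11, 51813448 to 51859011) encodes a PHD finger protein that scaffolds KAT7 complexes and has also been described as a ubiquitin ligase of the demethylase LSD1. It had 18.9, 14.7, 14.6 and 19.9 CPM in the null proliferating libraries, against 2.08, 3.41, 3.13 and 2.88 CPM in the intact ones. In differentiating cells it had 4.85, 5.82, 7.96 and 7.63 CPM in null against 3.21, 2.98, 1.79 and 2.01 CPM in intact libraries. In both conditions every null library lay above every intact library, with the larger gap in proliferating cells. The mRNA was 2.63-fold higher in differentiating cells (log2 1.39 ± 0.22, edgeR adjusted p = 1.4e-04) and 5.93-fold higher in proliferating cells (log2 2.57 ± 0.23, edgeR adjusted p = 1.3e-06). Both differences passed the test against 1.5-fold. Over all alternatives the log2 values ran over 1.27 to 1.54 in differentiating and 2.44 to 2.66 in proliferating cells, and the difference was called in all of them.

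The Jade2 response to differentiation also depended on genotype. In null cells Jade2 fell by 1.37 on the log2 scale (SE 0.22, edgeR adjusted p = 4.5e-05) to 6.56 ± 1.48 CPM in differentiating cells, against 17.04 ± 2.74 CPM in proliferating cells. In intact cells it was at 2.49 ± 0.702 CPM in differentiating and 2.88 ± 0.571 CPM in proliferating cells (-0.20 ± 0.23, edgeR adjusted p = 0.441). The difference of the responses was -1.17 ± 0.31 (edgeR adjusted p = 0.0149) and missed the threshold when 1.5-fold was the minimum (adjusted p = 0.142; adjusted p 0.00205 to 0.142 over 24 alternatives). The gene with the pattern most like Jade2 over the 16 libraries was Me1, which encodes cytosolic malic enzyme (Pearson r = 0.984). Me1 averaged 129 ± 25.9 CPM in null against 62.5 ± 10.3 CPM in intact cells that were differentiating, and 210.2 ± 22.4 CPM in null against 67.5 ± 8.78 CPM in intact cells that were proliferating. The summed level of the astrocyte markers was also higher in every null library than in any intact library of the same condition. Of the 7, 5 were called higher in differentiating and 4 in proliferating cells, where Gja1, Aqp4 and Gfap overlapped between genotypes. Their part in the Jade2 difference was not tested.

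Jade1 (Entrez 269424; chromosome 3, 41555734 to 41616864), the scaffold whose protein also binds the von Hippel-Lindau tumour suppressor, responded to differentiation by genotype. It had 44.7, 41.8, 44.6 and 46.97 CPM in null against 32.3, 38.9, 34.9 and 35.8 CPM in intact differentiating libraries, with all null libraries higher. In proliferating cells it had 49.5, 51.2, 54.8 and 36.3 CPM in null against 50.7, 51.96, 57.2 and 56.1 CPM in intact libraries, which overlapped, with null replicate 4 lowest. Jade1 was higher in null differentiating cells (0.33 ± 0.10, edgeR adjusted p = 0.0169), a call lost with library size scaling (0.24, adjusted p = 0.0816; adjusted p 1.0e-03 to 1.0 over 25 alternatives). The value in proliferating cells was -0.17 ± 0.10 (edgeR adjusted p = 0.204), and -0.055 without null replicate 4 (adjusted p = 0.589; adjusted p 0.0777 to 1.0 over 25 alternatives). Upon differentiation Jade1 fell in intact cells (-0.61 ± 0.10, edgeR adjusted p = 9.5e-05), while in null cells the value was -0.11 ± 0.10 (edgeR adjusted p = 0.373). The value in null cells passed without null proliferating replicate 4 (-0.22, adjusted p = 0.0156; adjusted p 0.0156 to 1.0 over 25 alternatives). The responses differed by 0.50 ± 0.15 (edgeR adjusted p = 0.0231), less than 1.5-fold, and did not pass a test against that minimum. Without single libraries the difference was 0.39 to 0.57 (edgeR adjusted p 0.0125 to 0.0484), and with a replicate block it was close to the threshold (edgeR adjusted p = 0.0497). The gene most like Jade1 in pattern was Odf2l (Pearson r = 0.941 over 16 libraries).

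Jade3 (Entrez 382207; chromosome X, 20425312 to 20519939), the X-linked paralog, was lower upon differentiation in both genotypes. It had 8.93, 9.099, 8.99 and 10.7 CPM in null against 10.9, 7.19, 7.42 and 6.92 CPM in intact differentiating libraries, and 20.8, 23.5, 20.8 and 16.5 CPM in null against 12.9, 15.05, 15.4 and 14.99 CPM in intact proliferating libraries. All differentiating libraries of a genotype lay below its proliferating ones, and Jade3 fell by 1.11 on the log2 scale in null cells (SE 0.15, edgeR adjusted p = 8.8e-06) and by 0.84 in intact cells (SE 0.15, edgeR adjusted p = 1.3e-04). The difference of these responses did not pass (-0.27 ± 0.21, edgeR adjusted p = 0.379). Between the genotypes, Jade3 rose in null proliferating cells (0.48 ± 0.15, edgeR adjusted p = 0.01696), which was not called without null replicate 2, the highest library (0.41, adjusted p = 0.0556; adjusted p 0.00253 to 1.0 over 25 alternatives). In differentiating cells the value was 0.22 ± 0.15 (edgeR adjusted p = 0.251). It passed without intact differentiating replicate 1, which had 10.9 CPM where the other 3 intact libraries had 6.92 to 7.42 CPM (0.39, adjusted p = 0.0163; adjusted p 0.0112 to 1.0 over 25 alternatives).

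Per length, BRPF mRNAs outweighed JADE mRNAs in every library. BRPF scaffolds made up 78.05 ± 1.77% of the summed RPKM of the 6 scaffolds in null and 79.7 ± 1.63% in intact differentiating cells (SD, n = 4), and 70.1 ± 0.984% in null and 73.2 ± 0.826% in intact proliferating cells. The proliferating groups did not overlap, at 68.8 to 70.9% in null and 71.97 to 73.8% in intact libraries. Within the JADE family, Jade2 supplied 8.65 ± 1.63% in null and 4.195 ± 0.937% in intact differentiating cells, and 14.9 ± 3.998% in null and 3.04 ± 0.499% in intact proliferating cells. Jade1 supplied 41.97 ± 3.25% in null and 58.8 ± 1.55% in intact proliferating cells. The summed level of the 3 JADE mRNAs was 19.1 ± 2.06 RPKM in null and 15.4 ± 0.994 RPKM in intact proliferating cells. Shares taken from CPM, with no length, put Jade2 at 10.8% in null and 5.38% in intact differentiating cells, and at 20.3% in null and 4.01% in intact proliferating cells. These shares are sums over the chosen genes and are given without a test.

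**Figure D2:**
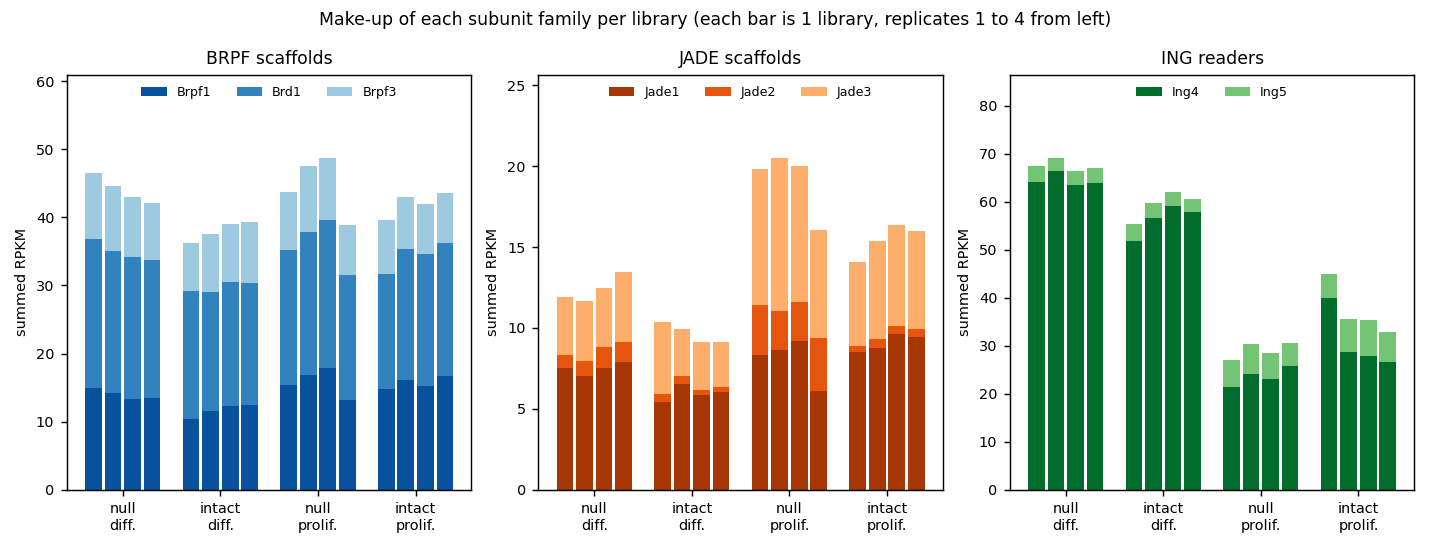
Summed RPKM of the BRPF scaffolds, the JADE scaffolds and the ING readers in each library, each bar being 1 library, with null differentiating, intact differentiating, null proliferating and intact proliferating groups from left to right. Jade2 takes 11.8 to 20.3% of the JADE sum in null proliferating libraries, against 2.43 to 3.64% in intact ones, and Ing4 takes at least 93.7% of the ING sum in every differentiating library.

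The ING readers moved in opposite directions upon differentiation, Ing4 rising and Ing5 falling in both genotypes. Ing4 (Entrez 28019; chromosome 6, 125039848 to 125049265) and Ing5 (Entrez 66262; chromosome 1, 93803926 to 93822101) encode the alternative PHD finger subunits of the complex. The promoters of this pair, which moved in opposite directions, and of Kat7, the targeted gene, are shown from RefSeq (GRCm38.p6, 250 bases before to 50 after the annotated start, 5′ to 3′ on the gene's strand), with matches to the motifs named after them in capitals.
Ing4, chr6:125039598-125039897, plus strand: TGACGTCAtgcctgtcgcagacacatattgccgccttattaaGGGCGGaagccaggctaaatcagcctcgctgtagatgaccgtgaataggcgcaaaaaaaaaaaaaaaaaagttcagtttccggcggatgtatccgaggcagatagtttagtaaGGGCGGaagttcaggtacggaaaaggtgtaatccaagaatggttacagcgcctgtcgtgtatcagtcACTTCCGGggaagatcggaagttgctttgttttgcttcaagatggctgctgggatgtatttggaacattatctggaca
Ing5, chr1:93803715-93804014, plus strand: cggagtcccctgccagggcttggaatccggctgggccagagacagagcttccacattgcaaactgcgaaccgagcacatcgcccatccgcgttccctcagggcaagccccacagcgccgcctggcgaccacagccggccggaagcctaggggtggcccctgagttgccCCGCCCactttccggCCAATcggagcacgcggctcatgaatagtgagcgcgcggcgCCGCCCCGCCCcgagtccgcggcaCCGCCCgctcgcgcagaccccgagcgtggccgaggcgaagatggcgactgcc
Kat7, chr11:95310197-95310496, minus strand: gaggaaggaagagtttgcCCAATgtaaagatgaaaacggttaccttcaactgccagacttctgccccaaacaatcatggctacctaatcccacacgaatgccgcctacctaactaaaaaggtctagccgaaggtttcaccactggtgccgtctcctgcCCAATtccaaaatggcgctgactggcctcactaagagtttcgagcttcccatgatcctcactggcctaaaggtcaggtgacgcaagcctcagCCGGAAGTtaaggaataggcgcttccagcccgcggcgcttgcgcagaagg
The Ing4 window has 46.7% G and C and an observed over expected CpG ratio of 1.02, and the Ing5 window 71.0% and 0.937, where the medians over 32841 promoter windows of the same length are 52.7% and 0.384. On both strands, Ing4 holds 2 matches to the GC box GGGCGG, 1 to the ETS motif CCGGAAGT and 1 to the cyclic AMP response element TGACGTCA, and Ing5 holds 4 GC boxes, 2 of them overlapping by a base, and 1 CCAAT box. Kat7 holds 2 CCAAT boxes and 1 ETS motif. Of all the windows, 35.7% hold a GC box, 37.4% CCAAT, 3.89% the ETS motif and 1.79% the response element. The promoter table used here has 12 windows for 9 of the 10 genes, all but Jade2, and none of the 12 holds the TATA box TATAAA, which 13.6% of all windows do. A match is a run of letters and says nothing of binding.

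Ing4 had 104, 107, 103 and 103 CPM in the null differentiating and 83.7, 91.5, 95.6 and 93.4 CPM in the intact differentiating libraries. In proliferating cells it had 34.6, 39.1, 37.4 and 41.8 CPM in null against 64.5, 46.3, 45.2 and 42.9 CPM in intact libraries. Every differentiating library was above every proliferating library, and intact proliferating replicate 1 was the highest of the proliferating ones. Ing4 rose 2.73-fold upon differentiation in null cells (log2 1.45 ± 0.11, edgeR adjusted p = 1.9e-08) and 1.83-fold in intact cells (log2 0.87 ± 0.11, edgeR adjusted p = 3.4e-06). The larger response of null cells passed as a difference (0.57 ± 0.15, edgeR adjusted p = 0.0123), though not against 1.5-fold (adjusted p = 0.983; adjusted p 0.003602 to 0.983 over 24 alternatives). In proliferating cells Ing4 was lower where Kat7 was null (-0.38 ± 0.11, edgeR adjusted p = 0.0106). Without intact proliferating replicate 1 this difference was -0.23 (adjusted p = 0.0143; adjusted p 0.00189 to 1.0 over 25 alternatives). In differentiating cells the value of 0.20 ± 0.10 did not pass (edgeR adjusted p = 0.136), although all null libraries were higher, and it passed without intact proliferating replicate 1, which enters only through the shared spread (0.20, adjusted p = 0.0144; adjusted p 0.0144 to 1.0 over 25 alternatives). Trafd1 was the gene most like Ing4 in pattern (Pearson r = 0.991 over 16 libraries). Its level was 124 ± 7.79 CPM in null against 109 ± 5.45 CPM in intact differentiating cells, and 40.7 ± 4.43 CPM in null against 57.6 ± 10.03 CPM in intact proliferating cells. A transcript annotated on the same strand, Gm44597, covers 1855 exonic bases of Ing4 in GENCODE and is not among the counted genes. The deposited Ing4 length is 1617 bases, so GENCODE is not the model that was counted. How much of the counted model is shared was not measured, and reads of Gm44597 may be among those of Ing4.

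Ing5 had 14.51, 12.7, 13.2 and 14.4 CPM in the null differentiating and 15.9, 14.2, 13.2 and 12.9 CPM in the intact differentiating libraries. In proliferating cells it had 25.01, 28.4, 24.6 and 21.5 CPM in null against 23.4, 31.99, 34.1 and 29.03 CPM in intact libraries. The conditions did not overlap within a genotype, and Ing5 fell by 0.86 on the log2 scale in null cells (SE 0.12, edgeR adjusted p = 1.3e-05) and by 1.08 in intact cells (SE 0.12, edgeR adjusted p = 1.5e-06). The genotypes overlapped in both conditions, with values of -0.04 ± 0.12 (edgeR adjusted p = 0.815) in differentiating and -0.25 ± 0.12 (edgeR adjusted p = 0.103) in proliferating cells. The value in proliferating cells passed without intact proliferating replicate 1, the lowest intact library (-0.35, adjusted p = 0.0156; adjusted p 0.00724 to 1.0 over 25 alternatives). Ing4 made up 95.5 ± 0.338% of the summed RPKM of the pair in null and 94.8 ± 0.784% in intact differentiating cells, and 81.1 ± 2.37% in null and 82.05 ± 4.404% in intact proliferating cells. Intact proliferating replicate 1 had 88.6% and the other 3 intact proliferating libraries 78.8 to 80.6%. From CPM, with no length, the Ing4 share was 88.4% in null and 86.6% in intact differentiating cells, and 60.6% in null and 62.3% in intact proliferating cells, so its size depends on the gene lengths.

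**Figure D3:**
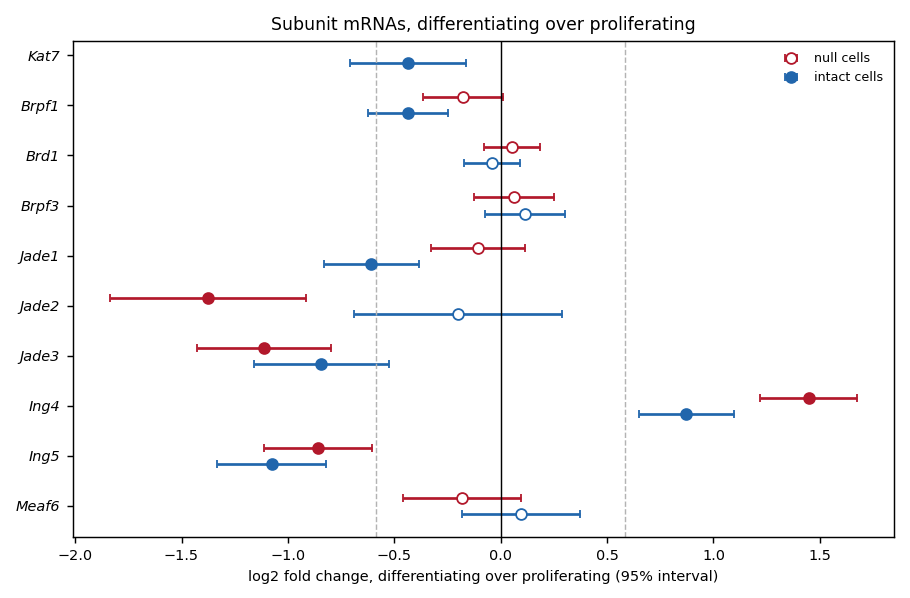
Log2 fold change of each mRNA in differentiating over proliferating cells with its 95% interval, in null and in intact cells; filled points have an edgeR adjusted p under 0.05, dashed lines mark 1.5-fold, and Kat7 in null cells is left out for lack of counts. Ing4 lies to the right and Jade3 and Ing5 to the left of the lines in both genotypes. Jade2 lies to the left in null cells, at -1.37, and Jade1 just to the left in intact cells, at -0.61.

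Between conditions, Ing4, Ing5 and Jade3 changed by more than 1.5-fold in both genotypes, each passing the test against that minimum. In null cells Ing4 rose and Kat7, Jade2, Jade3 and Ing5 fell, which is 5 of 10 genes where 69.0% of all tested genes were called, 34.6% higher and 34.4% lower. Libraries did not overlap for 4 of the 10, beside 67.0% of all tested genes. In intact cells Ing4 rose and Kat7, Brpf1, Jade1, Jade3 and Ing5 fell, which is 6 of 10 where 72.0% were called, 36.7% higher and 35.3% lower. The same 6 did not overlap, beside 62.8% of all tested genes. The median log2 fold change of the 9 genes other than Kat7 was -0.18 in null and -0.20 in intact cells, beside 0.02 over all tested genes in each. The responses of the genotypes differed for Jade1, Jade2 and Ing4, which is 3 of 10 where 22.7% of all tested genes were called, 12.7% higher and 9.93% lower. The comparison in null cells and that in intact cells share no libraries.

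Meaf6 (Entrez 70088; chromosome 4, 125085113 to 125113238), a small subunit shared by these complexes, was not called in any comparison. It had 29.1, 32.6, 27.6 and 25.6 CPM in null against 48.1, 30.5, 33.2 and 31.4 CPM in intact differentiating libraries, and 33.5, 32.7, 33.4 and 30.8 CPM in null against 28.7, 36.5, 35.7 and 33.4 CPM in intact proliferating libraries. The groups overlapped in both conditions. The log2 fold change was -0.32 ± 0.13 in differentiating cells (edgeR adjusted p = 0.0573) and -0.04 ± 0.13 in proliferating cells (edgeR adjusted p = 0.837, 95% interval -0.32 to 0.24). The first lay close to the threshold and passed with library size scaling (-0.40, adjusted p = 0.0117) and in 7 other alternatives (adjusted p 0.0117 to 1.0 over 25 alternatives). The highest library was intact differentiating replicate 1 with 48.1 CPM, beside 30.5 to 33.2 CPM in the rest of its group. Without it the value was -0.14 (adjusted p = 0.224).

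Of 7 related genes outside the complexes, 3 rose in null differentiating cells and 1 fell in null proliferating cells, where 46.4% and 38.6% of all tested genes were called, so the counts do not set these genes apart. Of the other 4 MYST acetyltransferase genes, Kat6a was higher in null differentiating cells, at 317 ± 6.12 against 276 ± 12.2 CPM in intact cells (0.20 ± 0.07, edgeR adjusted p = 0.0308), and Kat5 was lower in null proliferating cells, at 55.4 ± 1.200 against 64.2 ± 3.75 CPM (-0.21 ± 0.06, edgeR adjusted p = 0.00947). Kat8 and Kat6b were not called between genotypes in either condition. Kat6b rose upon differentiation by 1.15 ± 0.10 in null and 1.16 ± 0.10 in intact cells (edgeR adjusted p = 1.0e-07 and 1.1e-07). Of the 3 other ING genes, Ing1 (0.35 ± 0.09, edgeR adjusted p = 0.00509) and Ing2 (0.54 ± 0.12, edgeR adjusted p = 0.00187), readers in deacetylase complexes, rose in null differentiating cells and none was called in proliferating cells. Ing3, of the KAT5 complex, was not called in any comparison.

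Origin licensing genes, here Orc1 to Orc6, Cdc6, Cdt1, Gmnn and Mcm2 to Mcm7, encode proteins that load the replicative helicase, form it or restrain its loading. Among these, ORC1 and CDT1 bind KAT7 in human cells. Of the 15, 9 rose and 0 fell in null differentiating cells, where 24.3% of all tested genes rose and 22.0% fell, among them Mcm6 (0.74 ± 0.13, edgeR adjusted p = 3.6e-04) and Cdt1 (0.83 ± 0.16, edgeR adjusted p = 6.6e-04). Their median was 0.39, beside 0.04 over all tested genes. In proliferating cells, where 19.0% of all tested genes rose and 19.7% fell, 0 rose and 2 fell, Orc3 (-0.33 ± 0.06, edgeR adjusted p = 5.9e-04) and Orc5 (-0.29 ± 0.06, edgeR adjusted p = 0.00137), with a median of -0.01 as over all genes. For 8 of the 15 the difference between the conditions' genotype effects passed the test, as it did for 22.7% of all tested genes. The summed level of cycling markers was also higher in null than in intact differentiating libraries, as given above, and its part in these differences was not tested.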

How the data were processed

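Polyadenylated RNA of 16 libraries had been sequenced as paired 75-base reads. The values the authors deposited are raw read counts per gene, beside gene lengths in bases per the file headers. The submitters' processing notes name bcl2fastq, featureCounts and the build mm10. An aligner, an annotation, strandedness and versions are not named there. Reads of overlapping, antisense or near-identical genes therefore cannot be told apart, and Brpf1, Brpf3 and Jade1 have antisense neighbours with shared exonic bases in GENCODE. The series-wide table repeats these values and was left aside.

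Symbols and positions came from RefSeq (GRCm38, which is mm10) through Entrez identifiers, for 25275 of 27179 genes and all 10 members. In edgeR 4.0.16 (R 4.3.3), filterByExpr with a minimum count of 10 chose the genes, TMM scaled the libraries, and a quasi-likelihood fit gave each group its mean over all 16 libraries. Tests were adjusted by Benjamini-Hochberg over 15177 genes, with adjusted p under 0.05 called. Each SE divides the unshrunk estimate by the root of its F statistic, and 95% intervals use its t quantile. CPM is counts over TMM-scaled totals, and RPKM is CPM per kilobase. Log2 CPM for patterns used a prior count of 2. The code was tested on simulated data.

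The members and lists were chosen with earlier results of these data known. All 10 members are named. Also named are the 3 nearest tested genes on each side of Kat7, the genes most like Kat7 (3) and like members with a called interaction (1 each) among genes with at least 2 CPM in a group, the MYST and ING paralogs, and up to 4 called licensing genes with the lowest adjusted p. Alternatives were library size scaling, DESeq2 size factors, DESeq2 1.42.0, other filters, a test against 1.5-fold, a replicate block, the compared groups alone, each library left out, and intact proliferating replicate 1 with intact differentiating replicate 1 left out. Protein sequences were not used here. The lowest chi-square per gene between replicates was 1.76, so no library was a copy of another.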

Additional observations from a re-analysis of the deposited data

Results flagged for a closer look

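In 72 checks of the 10 genes and of the family shares within groups of 4, a library stood apart from the other 3 in 8 cases. Chance flags about 1 in 20 groups of independent, normally spread values. That rate is only a rough guide here, since the shares reuse the same genes and a lone Kat7 count is always flagged. Intact proliferating replicate 1 was highest for Ing4 (64.5 CPM) and lowest for Brd1 (86.8 CPM) and Jade3 (12.9 CPM). Intact differentiating replicate 1 was highest for Jade3 (10.9 CPM) and Meaf6 (48.1 CPM) and had the lowest Jade1 share of the JADE sum (52.3%). Null differentiating replicate 4 was highest for Jade3 (10.7 CPM), and replicate 2 of that group held its only Kat7 count (0.0306 CPM). Without the intact replicates numbered 1 in both conditions, 6 of the 10 genes were called between genotypes in differentiating cells, where 49.6% of 15252 tested genes were, and 6 in proliferating cells, where 48.2% were.

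The effect of genotype differed between the conditions by the edgeR test of the difference, the null response to differentiation minus the intact one, where 22.7% of all tested genes were called. Among the members this held for 3, with log2 values of -1.17 ± 0.31 for Jade2 (edgeR adjusted p = 0.0149), 0.57 ± 0.15 for Ing4 (edgeR adjusted p = 0.0123) and 0.50 ± 0.15 for Jade1 (edgeR adjusted p = 0.0231). Of the 7 MYST and ING paralogs it held for Kat6a (0.31 ± 0.10, edgeR adjusted p = 0.0369). Of the 6 Kat7 neighbours it held for Slc35b1 (-0.50 ± 0.10, edgeR adjusted p = 0.00264) and Spop (-0.37 ± 0.07, edgeR adjusted p = 0.002903). Of the 15 licensing genes it held for 8, those with the lowest adjusted p being Mcm3 (0.99 ± 0.20), Mcm6 (0.75 ± 0.19), Cdt1 (0.85 ± 0.22) and Mcm5 (0.71 ± 0.20), with edgeR adjusted p between 0.00327 and 0.0182. Genes chosen for a pattern like that of a member also passed, Tmem50a at -0.52 ± 0.12, Odf2l at 0.52 ± 0.13 and Trafd1 at 0.69 ± 0.15 (edgeR adjusted p between 0.00393 and 0.00918), which their choice favours.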

How the results depend on the processing

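Over 50 results for single members, 1239 refits gave 1172 with the same direction and side of the threshold, 22 that lost and 26 that gained a call, and 19 with another sign, 0 of these called. With a minimum of 1.5-fold, members called fell to 2 of 5 in differentiating and 2 of 4 in proliferating cells between genotypes, to 3 of 6 upon differentiation of intact cells and to 0 of 3 for the interaction. All genes called were then 2641 of 7036, 1645 of 5864, 5730 of 10926 and 766 of 3442, and 5150 of 10468 in null cells upon differentiation. Library size scaling called 3 members between genotypes in differentiating cells. BRPF shares of scaffold CPM, with no length, were 72.6% in null and 74.7% in intact proliferating cells. Leaving out each library gave 4 to 7 members called between genotypes in differentiating and 3 to 5 in proliferating cells, 6 in intact and 4 to 7 in null cells upon differentiation, and 3 to 4 for the interaction. Genes called then ran over 6263 to 7742 and 5013 to 6770 between genotypes, 10437 to 11279 and 9986 to 11000 upon differentiation, and 2834 to 4032.

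Signs changed for values near 0, and the cause was not tested. Brpf1 between genotypes in proliferating cells was -0.068 with library size scaling, -0.0057 with DESeq2 size factors, -0.0070 with DESeq2's test, -0.024 without both intact replicates 1 and -0.058 to 0.090 without single libraries. Brd1 upon differentiation of intact cells was 0.033, 0.0084 and 0.0085 with the first 3 of these. Without both intact replicates 1, Ing5 between genotypes in differentiating cells was 0.026 and Meaf6 upon differentiation of intact cells -0.15. Without single libraries these were -0.076 to 0.026 and -0.080 to 0.16, Meaf6 between genotypes in proliferating cells -0.11 to 4.1e-04, and Brpf3 -0.0086 to 0.11 upon differentiation of null cells and -0.13 to 3.9e-04 for the interaction.

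With a replicate block on the number, 5 and 4 members were called between genotypes, 6 and 5 upon differentiation of intact and null cells, and 4 for the interaction, the added 1 being Kat7 (adjusted p = 0.0314). Between genotypes the block joins libraries of different foetuses, and deviations of same-numbered libraries correlated at -0.106 to 0.0631. It therefore tests no real pairing there. The labels do not say that numbers mark shared foetuses. Deviations of same-numbered libraries of the 2 conditions correlated at -0.0284 to 0.0331 in null and -0.231 to 0.126 in intact cells. Intact differentiating replicates 1 and 2 correlated best with their own number (0.126 and 0.123), and replicates 3 and 4 did not. These values do not settle whether numbers match foetuses, and the main fit did not use them as pairs. Depth limits Kat7 in null cells, with 0 to 4 counts a library.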
